A study of Drosophila melanogaster with 3 samples.

Results

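Intronic core regions near start sites are the 775 places where peaks of tagged Tango fell inside an intron but close to a transcription start. They come from anti-GFP chromatin immunoprecipitation sequencing of whole Drosophila melanogaster embryos aged 0 to 24 h, in 3 biological replicates of a strain with an eGFP-tagged tgo insertion. All 3 replicates carry the tag, there is 1 group and no untagged or treated arm, so peaks that do not depend on Tango cannot be told apart from those that do. The labels do not say whether an untagged tgo copy remained in these flies, and in whole embryos a site bound in few cells and a site bound weakly in many cannot be told apart. The peak summits of the 3 thresholded lists were joined where they lay no more than 150 bp apart, which gave 5569 regions, and the 3463 regions present in at least 2 lists are called core regions. The members were selected on being core regions whose median summit lay inside a protein-coding gene, outside protein-coding exons, outside the stretch from 1000 bp upstream to 200 bp downstream of any protein-coding start site, and no more than 5000 bp from the nearest such site. They make up 22.4% of all core regions. Genome sequence that meets the same demands on position is called eligible here and comes to 21.9 Mb. All positions are on dm6.

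Tango, the fly counterpart of ARNT, is a bHLH-PAS transcription factor that needs a second such protein as a partner on DNA. With Single-minded it acts in the ventral midline of the nervous system, with Trachealess in the tracheal tubes, with Similar in the response to low oxygen, and with Spineless in antennae and legs. The pairs with Single-minded, Trachealess and Similar bind the core ACGTG, and the pair with Spineless binds GCGTG. Introns near a start site, above all the intron that follows the 5′ exon, often hold enhancers and further promoters in flies.

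The sequences under the members show what most of them had in common, a stretch rich in A and T. The windows printed first are the 100 bp centred on the median summit of the 5 strongest members, on the plus strand of dm6 from 5′ to 3′. They lie at chr2L:6612658-6612757 in CG11050, chrX:4910309-4910408 in CG32772, chr3L:14759454-14759553 in Trl, chrX:3742178-3742277 in Tlk and chrX:5918861-5918960 in CG3726. Capitals mark, on either strand, the 5 5-mers with the highest ratio of summit to flank windows among those in at least 5% of summit windows. These are TATAA (in 45.7% of summit windows), TACTA (21.0%), TAAGA (28.4%), TAATA (51.1%) and TATGA (28.9%), and marks that overlap run together.
CG11050: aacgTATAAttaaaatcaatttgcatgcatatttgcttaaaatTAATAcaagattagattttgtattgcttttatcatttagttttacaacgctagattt
CG32772: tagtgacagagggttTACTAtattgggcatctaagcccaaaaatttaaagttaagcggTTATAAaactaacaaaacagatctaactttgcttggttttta
Trl: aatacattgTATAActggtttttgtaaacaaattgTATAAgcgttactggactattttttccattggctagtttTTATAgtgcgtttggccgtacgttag
Tlk: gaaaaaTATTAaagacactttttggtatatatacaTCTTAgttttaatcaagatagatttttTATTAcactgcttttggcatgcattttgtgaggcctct
CG3726: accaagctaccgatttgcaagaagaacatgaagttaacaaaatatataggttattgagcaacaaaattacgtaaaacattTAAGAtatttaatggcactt
GC content in these 5 windows was 22%, 32%, 33%, 28% and 29%, in the order printed. For comparison, the window 500 bp to the right of the CG11050 summit, chr2L:6613158-6613257, is shown, because it lies wholly in an exon and has a GC content of 67% and none of the 5-mers. The window 500 bp to its left, chr2L:6612158-6612257, is intronic, and its GC content of 23% is close to that at the summit.
CG11050 right flank: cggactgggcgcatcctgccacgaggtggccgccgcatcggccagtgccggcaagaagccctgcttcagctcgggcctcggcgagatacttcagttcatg

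Members in genes of Tango's own family are shown next, since some genes of that family encode its partners. They lie at chr3R:30061257-30061356 in sima, which encodes Similar, at chr2L:9168421-9168520 in tai, which encodes the bHLH-PAS coactivator Taiman, and at chr3R:13068171-13068270 in sim, which encodes Single-minded. The capitals have the same meaning.
sima: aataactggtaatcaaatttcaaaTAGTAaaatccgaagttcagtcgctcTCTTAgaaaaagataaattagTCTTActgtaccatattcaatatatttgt
tai: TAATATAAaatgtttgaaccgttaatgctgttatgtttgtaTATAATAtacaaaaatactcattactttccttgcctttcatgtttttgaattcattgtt
sim: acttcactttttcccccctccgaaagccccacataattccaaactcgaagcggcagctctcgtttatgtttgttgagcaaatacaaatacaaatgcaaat
None of these 3 windows holds ACGTG or GCGTG on either strand. A window that holds one of these cores is that at chr3L:4070558-4070657 in wit, which encodes a type II receptor for BMP ligands. In the next line the capitals mark that core, GCGTG on the minus strand.
wit: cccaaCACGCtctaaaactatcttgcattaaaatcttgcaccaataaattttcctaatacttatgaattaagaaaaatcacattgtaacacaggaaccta
Exceptions to the low GC content are shown with the 5-mers in capitals, from mub, which encodes an RNA-binding protein with KH domains, at chr3L:21880444-21880543, and from elav, which encodes a neuronal RNA-binding protein, at chrX:522582-522681. Their GC content was 47% and 53%.
mub: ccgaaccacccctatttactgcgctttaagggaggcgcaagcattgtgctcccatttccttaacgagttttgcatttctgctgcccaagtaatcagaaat
elav: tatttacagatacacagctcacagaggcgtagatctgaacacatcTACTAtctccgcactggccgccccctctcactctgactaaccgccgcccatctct
The last window, at chrX:7706938-7707037, comes from CHES-1-like, a forkhead transcription factor gene and the host of the most members, and it has 6 occurrences of the marked 5-mers and a GC content of 19%.
CHES-1-like: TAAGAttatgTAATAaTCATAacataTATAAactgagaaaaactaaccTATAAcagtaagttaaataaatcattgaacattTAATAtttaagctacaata

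The 3 replicates did not contribute equally. Replicate 1 held 712 of the 775 members, replicate 2 held 752 and replicate 3 held 565, or 676 ± 98.5 (SD, n = 3). In all, 479 members (61.8%, Wilson 95% interval 58.3 to 65.2%) were in all 3 lists, and of the 296 in 2 lists, 210 lacked replicate 3, 63 lacked replicate 1 and 23 lacked replicate 2. The thresholded lists ranked the same way by length, at 4759 peaks for replicate 2, 3617 for replicate 1 and 3027 for replicate 3. Where a member was in all 3 lists, its summits spanned a median of 30 bp (quartiles 14 and 52 bp). Another 494 intronic regions at the same distances stood in a single list, 335 of them in that of replicate 2, and do not belong to the members. The median percentile of the authors' enrichment value within a list, averaged over the lists that held the region, was 52.5 for the members and 17.9 for the regions in a single list. These values describe the choice of members and were not tested. At the distance limit, the farthest member lay at 4983 bp and the nearest intronic core region left out at 5003 bp. The 39 members between 4500 and 5000 bp had a median percentile of 54.8, and the 40 core regions from 5000 to 5500 bp one of 37.2. At the promoter limit, the nearest members lay 207 bp downstream and 1004 bp upstream of a start site.

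Members in 2 lists could be looked up in the third replicate, which had not been needed to choose them. Of the 296, 266 (89.9%, Wilson 85.9 to 92.8%) had a candidate of the third replicate's longer ranked list within 150 bp. Positions 2000 bp to the left and right of the same members had a candidate in 11.5% and 11.8%. By replicate held out, the share was 87.3% of 63 for replicate 1, 95.7% of 23 for replicate 2 and 90.0% of 210 for replicate 3, a mean of 91.0% ± 4.26 (SD, n = 3). All 3 shares lay far above those of the shifted positions, which were at most 26.1%. The candidates stood high in their ranked lists, at median percentiles of 87.5, 93.8 and 87.1 for replicates 1, 2 and 3. By the choice of these members, none could be in that replicate's thresholded list, which begins at a score of 830. Intronic core regions farther from a start site gave 88.1% of 202 and promoter core regions 88.0% of 458, which lie within the counting intervals of the members. The authors' conservative list of the whole series, which is not independent of the 3 replicates, held 746 of the 775 members (96.3%).

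The strongest members lay in genes of very different roles. Members in all 3 lists were ranked by the mean percentile of the enrichment value, which is the authors' own and in unstated units, so high values in every replicate follow from that choice. The strongest, in CG11050 (chr2L:6612500-6612901, 1021 bp downstream of its nearest start site), stood at percentiles 99.88, 99.97 and 99.88 in replicates 1, 2 and 3. The member in CG32772 (chrX:4910178-4910543, in the first intron) stood at 99.3, 99.6 and 99.3. That in Trl, the gene of GAGA factor (chr3L:14759340-14759694), stood at 99.2, 99.5 and 98.3. For this member the nearest start site was not that of Trl but of the neighbouring gene CG42507, 1542 bp away. The member in Tlk, which encodes Tousled-like kinase (chrX:3742050-3742365), stood at 98.7, 99.0 and 99.1. That in CG3726 (chrX:5918757-5919069) stood at 98.9, 99.3 and 98.4.

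The next 10 lay between mean percentiles of 95.9 and 98.8. Among their hosts were CG12769, CG9663, NFAT, a Rel-family transcription factor gene, norpA, the phospholipase C of phototransduction, CHES-1-like, CG9837, Raf, the MAP kinase kinase kinase below receptor tyrosine kinases, mub, and CG31635. Of the 15, 12 lay in a first intron, 14 had their nearest start site in the host gene and 10 lay downstream of it. Their summits in the 3 lists were at most 22 bp apart. In 12 of the 15 the GC content at the summit was below that of the flanks, and the exceptions were NFAT (30% and 29.5%), CG9837 (25% and 22.5%) and mub (47% and 32.5%). On X lay 8 of the 15, beside 25.5% of all members and 27.7% of the strongest 155.

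**Figure D1:**
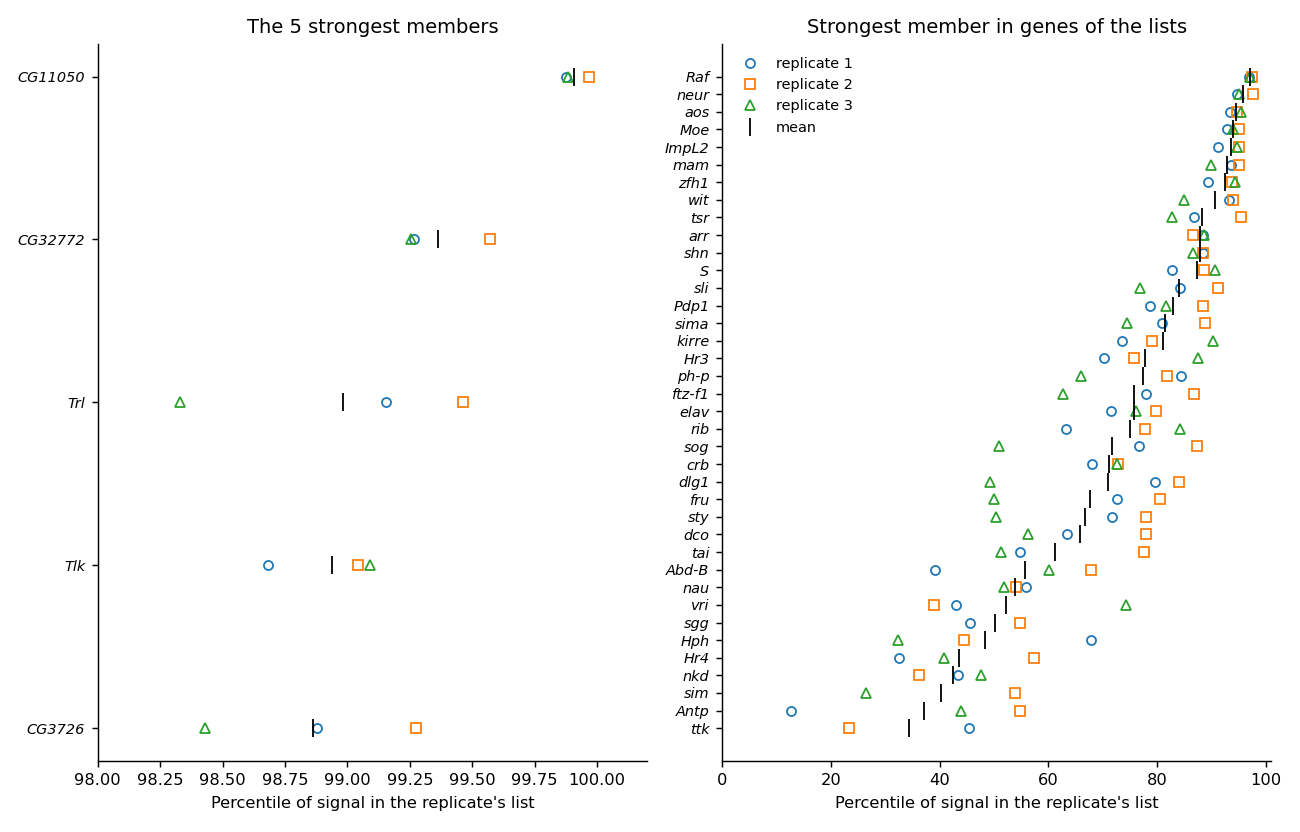
Percentile of the authors' enrichment value within each replicate's list (x axis) for the 5 strongest members (left) and for the strongest member in each named gene of the lists (right), with symbols for the 3 replicates and a bar for the mean. The strongest 5 lie between 98.3 and 99.97 in every replicate, while members such as that in Antp range from 12.6 to 54.7.

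First introns held more members than later ones for their length. Of the 775 members, 614 (79.2%, Wilson 76.2 to 81.9%) lay in the first intron of a protein-coding transcript, and of the eligible bases 60.6% did. The density was 46.3 members per Mb of eligible first intron (exact Poisson 95% interval 42.7 to 50.1) and 18.7 per Mb of later intron (15.9 to 21.8). In the lists of replicates 1, 2 and 3 the density in first introns was 2.41, 2.50 and 2.69 times that in later ones, a mean ratio of 2.53 ± 0.14 (SD, n = 3). All 3 lists were on the same side (exact two-sided sign-flip permutation p = 0.25, the smallest that 3 replicates allow, so no comparison here can pass 0.05). The rule demands presence in at least 2 lists, so the 3 lists of members overlap, and 479 members are common to all. Here and below, agreement between replicates and small SDs therefore follow in part from the rule, and these SDs and p-values are no independent replication. Intervals cover counting error only. Distance to the start site moves with intron order and is part of the rule, so the ratio was taken within distances. It was 2.81 ± 0.20 up to 2000 bp and 2.07 ± 0.12 from there to 5000 bp (both SD, n = 3, exact permutation p = 0.25). With first introns taken from each gene's longest transcript alone, 60.8% of the members and 45.2% of the eligible bases lay in one. The density ratio over all members, rather than the mean of the lists, was then 1.88, beside 2.48 with any transcript.

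Intron length mattered for the size of this difference. Length here is that of the shortest intron of any protein-coding transcript at a base. The first intron may be that of another transcript. In introns of up to 1000 bp the ratio was 11.7 ± 1.67, resting on 40 members in first and 7 in later introns. It was 3.71 ± 1.085 from 1000 to 3000 bp, 1.68 ± 0.16 from 3000 to 10000 bp and 1.93 ± 0.047 from 10000 to 30000 bp. In introns longer still it was 1.23 ± 0.11 (all SD, n = 3, exact permutation p = 0.25), and there the counting interval of the pooled ratio ran from 0.808 to 2.06. A higher density in first introns was therefore not detectable in the longest introns at these counts. The shortest intron of the host that held the member had a median of 6779 bp (quartiles 2950 and 14328 bp).

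**Figure D2:**
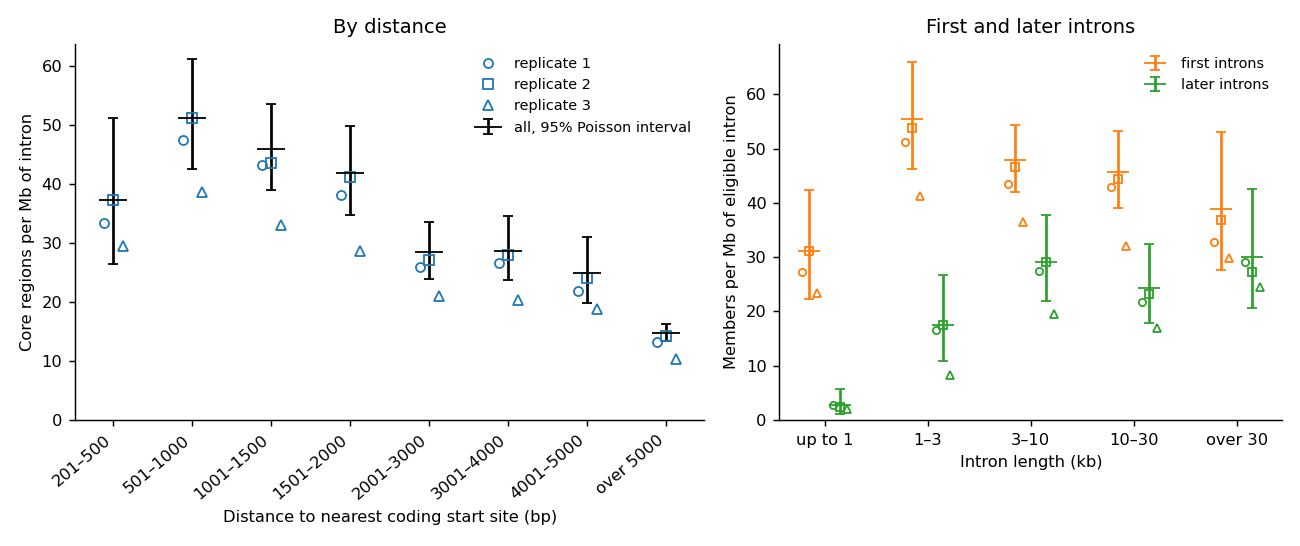
Left, core regions per Mb of intron (y axis) by distance to the nearest protein-coding start site (x axis, bp), with horizontal bars and exact Poisson 95% intervals for all core regions and symbols for each replicate's list. Right, members per Mb of eligible first (orange) and later (green) intron by intron length in kb. The density is 37.3 below 500 bp, 51.3 at 500 to 1000 bp and 25 at 4000 to 5000 bp, and first introns exceed later ones least in the longest introns.

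The density of members was highest at 500 to 1000 bp from the start site and lower beyond 2000 bp. Distance is part of the rule, so these values are a description with no test. Within 1000 bp of a start site the rule leaves only sequence downstream of it, while farther steps hold both sides. The median distance of the members was 1792 bp (quartiles 1083 and 3018 bp). Per Mb of eligible sequence, 37.3 members (exact Poisson 26.4 to 51.2) lay nearer than 500 bp and 51.3 (42.6 to 61.2) at 500 to 1000 bp. The next steps of 500 bp held 45.9 (39.0 to 53.7) and 41.9 per Mb (34.8 to 49.9). Up to 2000 bp the intervals of all steps overlap, so the place of the highest density is not settled within this range. From 2000 to 3000 bp there were 28.5, from 3000 to 4000 bp 28.7 and from 4000 to 5000 bp 25 (19.9 to 31.03), and the intervals of these last 3 overlap. Introns more than 5000 bp from a start site held 460 core regions, or 14.8 per Mb, against 35.4 for the members. The start site nearest to the member belonged to the host gene and lay upstream of the member in 531 cases (68.5%). In 146 (18.8%) it was an alternative start site of the host lying farther on, and in 98 (12.6%) it belonged to another gene. Within 250 bp of an annotated start of a noncoding gene lay 1.29% of the members (Wilson 0.702 to 2.36%) and 1.15% of the eligible bases, a difference within counting error.

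The X chromosome carried more members than its intron sequence would give at the autosomal density. There were 198 on X, or 45.5 per Mb of eligible sequence (exact Poisson 39.4 to 52.3), and 577 on the large autosome arms, or 33.5 per Mb (30.8 to 36.4). The ratio was 1.44, 1.37 and 1.38 in replicates 1, 2 and 3, or 1.395 ± 0.040 (SD, n = 3, exact permutation p = 0.25). Promoter core regions did not show it, with a ratio of 0.997 ± 0.014 (SD, n = 3, exact permutation p = 1). Divided by that of the promoters, the ratio of the members was 1.43, 1.36 and 1.41, or 1.399 ± 0.037 (SD, n = 3, exact permutation p = 0.25). Introns farther from a start site had a still higher X ratio, 1.66 ± 0.031 (SD, n = 3, exact permutation p = 0.25). Base composition differed little between these introns: tiles of 100 bp of eligible sequence averaged 39.3% GC on X and 39.7% on the autosome arms, and 18.4% and 17.3% of them had 30% GC or less. Its part in the difference was not tested. Chromosome 4 and the Y held 0 members in 0.281 and 0.0349 Mb of eligible sequence, and a count of 0 leaves room for up to 13.1 and 106 per Mb (exact Poisson).

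The drop in GC content was sharp and centred on the summits. At the replicates' own summits the members averaged 30.5%, 30.8% and 31.2% GC in 100 bp windows in replicates 1, 2 and 3, a mean of 30.8% ± 0.318 (SD, n = 3). In the windows 500 bp to either side the means were 41.7%, 41.6% and 41.7%, or 41.7% ± 0.0619. The difference was -10.8 percentage points ± 0.286 (SD, n = 3), with the 3 replicates on the same side (exact two-sided sign-flip permutation p = 0.25). In 670 of the 775 members (86.5%, Wilson 83.9 to 88.7%) the summit had a lower GC content than the mean of its flanks, and single members ran from 12% to 66%. All eligible sequence had 39.1% GC, and of its 191974 tiles of 100 bp, 17.8% had a GC content at or below the members' median of 30%. Flanks can reach into exons and promoters, which have more G and C. With flank windows that hold no exon or promoter base, a choice made after seeing the data, the difference was -9.96 percentage points ± 0.259 (SD, n = 3, exact permutation p = 0.25).

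The dip was narrow and had shoulders. In bins of 50 bp the GC content of the members was 30.2% ± 0.38 at the centre and 44.6% ± 0.10 at 200 bp to the left. It fell back to 39.7% ± 0.13 at 800 bp to the left and 39.8% ± 0.012 at 800 bp to the right (all SD, n = 3). Farther introns had higher shoulders, 45.8% ± 0.33 at 200 bp to the left, and a centre of 29.6% ± 0.18 (both SD, n = 3). In 100 bp windows at the summits, where the members averaged 30.8%, farther introns had 30.4% ± 0.0913 and promoter core regions 31.1% ± 0.585. In these windows the members exceeded the farther introns by 0.483 percentage points ± 0.336 (SD, n = 3, exact permutation p = 0.25). They differed from the promoters by -0.278 ± 0.291 (exact permutation p = 0.5), less than the spread between the replicates. The flanks of promoter regions were richer in G and C, at 45.7% ± 0.0812, than those of the members (members minus promoters -3.97 percentage points ± 0.121, SD, n = 3, exact permutation p = 0.25).

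**Figure D3:**
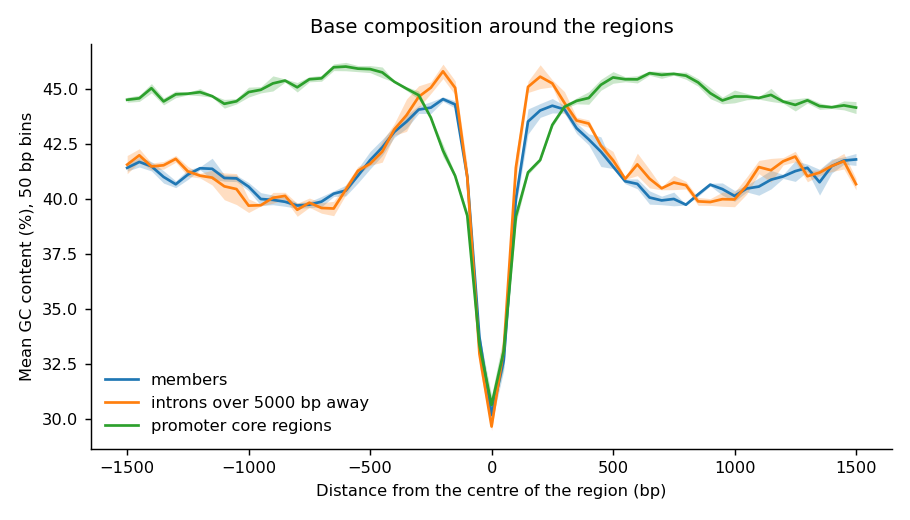
Mean GC content in bins of 50 bp (y axis, %) against the distance from the centre of the region (x axis, bp) for members, intronic core regions over 5000 bp from a start site and promoter core regions, with lines for the mean of the 3 replicate lists and bands for ± 1 SD. All 3 classes drop to about 30% at the centre, and at 200 bp to the left the members reach 44.6% and the farther introns 45.8%.

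The cores ACGTG and GCGTG, given above for Tango pairs, were not gathered at the summits. ACGTG, on either strand, was in 41 of 775 summit windows (5.29%, Wilson 3.92 to 7.10%) and in 8.90% of flank windows. The log2 ratio of summits to flanks was -0.94, -0.72 and -0.75 in replicates 1, 2 and 3, or -0.80 ± 0.12 (SD, n = 3), below 0 in all 3 lists (exact permutation p = 0.25, 0.27 after Benjamini-Hochberg adjustment over the 16 motifs). GCGTG was in 38 summit windows (4.90%, 3.59 to 6.66%) and in 13.0% of flanks, with a log2 ratio of -1.38 ± 0.23 (SD, n = 3, exact permutation p = 0.25, adjusted 0.27). In all, 75 members had either core in the 100 bp at the summit, and among the 44 named members off arm 2R 1 did, the member in wit. Eligible intron tiles held ACGTG in 7.69% and GCGTG in 10.4%, and when tiles were weighted to the GC content of the members the shares were 5.19% and 4.98%. The members thus had 1.02 and 0.985 times the share of introns of their own base composition, which lies within the counting intervals. In farther introns ACGTG was in 3.91% of 460 windows and in promoter core regions in 5.77% of 1663. The log2 ratio of members to farther introns was 0.39 ± 0.32 (SD, n = 3, exact permutation p = 0.25, adjusted 0.40). The palindrome CACGTG, an E-box that contains ACGTG, was in 3 members.

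Of the other motifs, those made wholly or mostly of A and T were more frequent at the summits than in the flanks. TAATTA, a core bound by homeodomain proteins, was in 13.2% of summits (Wilson 11.0 to 15.7%) and 5.68% of flanks, a log2 ratio of 1.17 ± 0.12. TATAA was in 45.7% and 20.3%, a log2 ratio of 1.083 ± 0.094. GATAA, bound by GATA factors, was in 25.9% and 19.5%, a log2 ratio of 0.37 ± 0.12 (all SD, n = 3, exact permutation p = 0.25, adjusted 0.27). Introns at the members' GC content held these 3 in 13.0%, 43.0% and 25.01% of windows, all within the members' intervals. TATCGA, part of the element of DREF and BEAF-32, was in 4.26% and 3.55%, with a log2 ratio of 0.23 ± 0.078 (SD, n = 3, exact permutation p = 0.25, adjusted 0.27), and this ratio was -0.05 over members in all 3 lists. GAGAG, bound by the GAGA factor, was rarer at summits (8.77%, Wilson 6.98 to 11.0%) than in flanks (16.4%), a log2 ratio of -0.87 ± 0.14 (SD, n = 3, exact permutation p = 0.25, adjusted 0.27). Against introns of the members' GC content it was in 1.31 times as many windows, since these held it in 6.70%, just under the interval. Over the 16 motifs, 5 were more frequent and 10 less frequent at the summit in all 3 replicates.

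**Figure D4:**
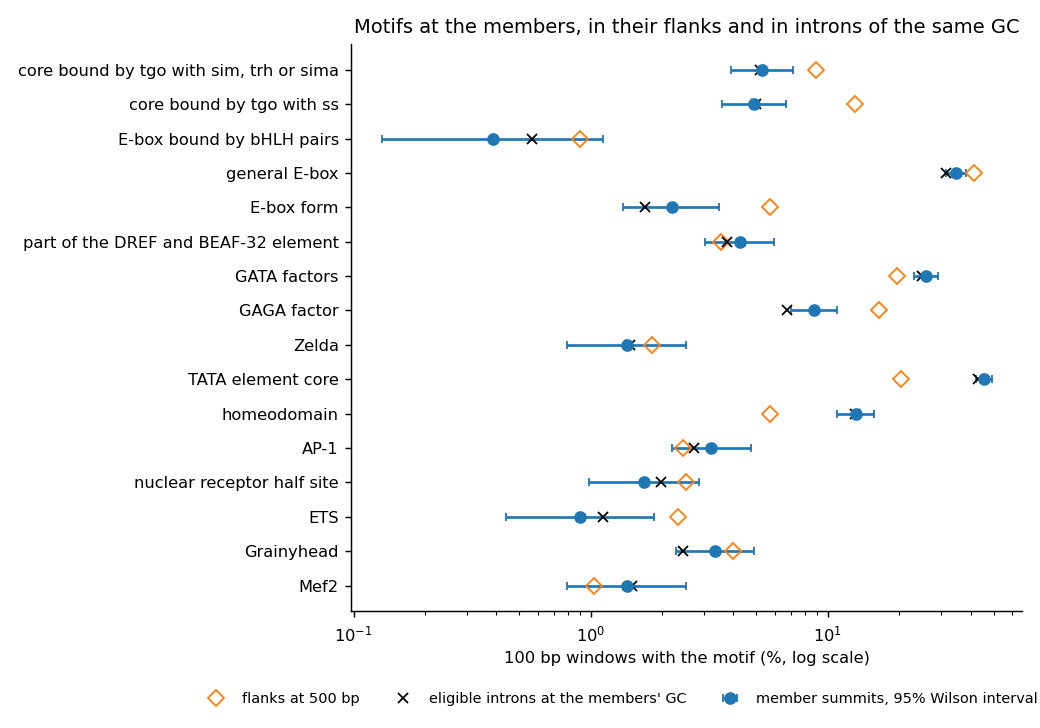
Share of 100 bp windows with each motif (x axis, %, log scale) at member summits with Wilson 95% intervals (circles), in flanks 500 bp away (diamonds) and in eligible introns weighted to the GC content of the members (crosses). The crosses lie near the circles for the Tango cores, at 5.19% and 5.29% for the first of them, while the flanks lie apart.

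All 5 of the most enriched 5-mers, marked in capitals above, hold at most 1 G or C. TATAA was 2.25 times as frequent at summits as in flanks, TACTA 2.20 times, TAAGA 2.19 times, TAATA 2.15 times and TATGA 2.03 times. The shares at the summits were 45.7%, 21.0%, 28.4%, 51.1% and 28.9%. Over introns of the same GC content the ratios were 1.06, 1.18, 1.18, 1.09 and 1.13. Farther introns held the same 5-mers in 43.3%, 22.4%, 29.3%, 48.7% and 28.7% of windows. Annotated transposable elements held 0 of the 775 members (Wilson upper bound 0.493%) but 4.04% of the eligible bases. Bases marked as repeats or of low complexity in the assembly held 25.8% of the members (22.9 to 29.0%), more than the 19.7% of eligible bases. Neither value was particular to the members. In farther introns, transposable elements held 1 of 460 core regions (0.217%) and bases marked in the assembly held 25.4%.

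The members fell on 568 host genes of the 9587 protein-coding genes with eligible sequence, so that 5.92% of such genes hosted at least 1. Of these hosts, 432 had 1 member, 94 had 2, 27 had 3, 8 had 4 and 7 had 5 or more. Hosts had far more eligible sequence than other genes, at a median of 6622 bp against 384 bp. CHES-1-like, on X, had the most, with 9 members in 15.4 kb of eligible sequence. Of these 9, 6 were in all 3 lists. Its strongest (chrX:7706837-7707155) stood at percentiles 97.2, 98.9 and 96.4, the next (chrX:7698269-7698536) at 95.3, 97.2 and 93.4, and the third (chrX:7700297-7700515) at 87.9, 93.6 and 80.4. These 3 were high in every replicate, and the other 6 had mean percentiles from 24.8 to 56.5. CG1677, Tlk and shn had 6 members each, and CG14434 had 5, as did Shrm and tou. Of these 7 genes, CHES-1-like, CG1677, Tlk and CG14434 lie on X, and shn, Shrm and tou on 2R. All 6 members in CG1677 had the start site of another gene nearest, among them unc-119 and CBP, within its 73902 bp intron. In Tlk the members ranged from a mean percentile of 8.32 to 98.9.

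Host genes more often had a core region in their own promoter too. Such a region was found in 37.3% of the 568 hosts (Wilson 33.4 to 41.4%) and in 16.8% of the 9019 other genes with eligible sequence (15.997 to 17.5%). Genes with more eligible sequence are longer, so the shares were also taken by its length. They were 33.7% and 19.7% for 1000 to 3000 bp of eligible sequence, and 34.5% and 15.5% for 3000 to 6000 bp. Above 6000 bp they were 41.5% and 20.5%. In these 3 classes the intervals of hosts and other genes did not overlap. In the class of up to 1000 bp, 14.3% of 21 hosts and 15.9% of 6047 other genes had such a region. The number of start sites per gene, which enters both the promoters and the eligible sequence, was not held equal in these shares. Of the members, 108 (13.9%) had another within 1000 bp, and no share for other regions was computed.

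Of the bHLH-PAS genes themselves, sima, tai and sim hosted members, 3 of the 11 with eligible sequence, against 5.92% of all such genes. Their density was 51.1 members per Mb of eligible sequence (exact Poisson 13.9 to 131), an interval that takes in the 35.4 of all eligible sequence. The member in the first intron of sima, whose product is the oxygen-regulated partner of Tango (chr3R:30061215-30061404, 1615 bp before an alternative start site), stood at percentiles 80.9, 88.7 and 74.4. That in tai (chr2L:9168294-9168656, 1693 bp after a start site) stood at 54.8, 77.7 and 51.3. In sim, the regulator of the midline, there were 2 weak members. The stronger (chr3R:13068031-13068406) was missing from replicate 1 and stood at 53.9 and 26.5 in replicates 2 and 3. The other (chr3R:13064407-13064771) was missing from replicate 3 and stood at 3.08 and 11.0 in replicates 1 and 2. The genes tgo, trh, ss, dysf, cyc, Clk, Met and gce hosted 0.

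The 20 gene lists had been put together with earlier results of these data known, and their shares are descriptions. Among genes with eligible sequence, 15 lists had at least 1 host. These lists are short, so each host shifts the share strongly, and nothing is read from a share above 5.92%. Since hosts have long introns, members per Mb of eligible sequence are given as well, beside 35.4 for all. The actin and cell adhesion list had hosts in 11 of 22 genes and 18 members, or 121 per Mb (exact Poisson 71.4 to 190). The strongest lay in the first intron of Moe, which links actin to the membrane (chrX:8896161-8896410), at percentiles 92.8, 95.1 and 93.9. Next was tsr, the cofilin gene (chr2R:24045222-24045469), at 86.8, 95.3 and 82.8. In dlg1, a scaffold gene of septate junctions, the strongest of 4 (chrX:11390694-11390909) was uneven, at 79.6, 84.0 and 49.2. The other hosts were Fas2, Fas3, Nrg, dia, ena, if, mew and rhea. On X lay 6 of the 11 hosts. The share of the list's 22 genes that lie on X was not computed, so no excess on X is read from this. Of the 18 members in this list, 17 were in replicate 1, 18 in replicate 2 and 10 in replicate 3.

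Signalling genes came next. In the EGF receptor pathway 6 of 18 genes were hosts, with 97.9 members per Mb (46.9 to 180). The first of the 4 members in Raf (chrX:2297572-2297849) stood at 96.9, 97.5 and 97.1. That in aos, which encodes the secreted inhibitor Argos (chr3L:16480445-16480701), stood at 93.3, 94.7 and 95.5. The stronger of 2 in S, whose product Star helps to export the ligand Spitz (chr2L:1075854-1076064), stood at 82.7, 88.6 and 90.6. These 3 were high in every replicate, and pnt, aop and sty were the other hosts.

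In the Dpp pathway, the BMP signalling of flies, 4 of 11 genes were hosts, with 109 members per Mb (52.4 to 201.04). The stronger of 2 in wit (chr3L:4070501-4070749) stood at 93.2, 93.9 and 85.0. The strongest of the 6 in shn, a zinc-finger factor that acts with the Dpp effectors (chr2R:11194719-11194962), stood at 88.4, 88.5 and 86.5. That in sog, the antagonist of Dpp (chrX:15622946-15623143), was lower in replicate 3, at 76.6, 87.3 and 51.0. The chromatin list had the highest density, 129 per Mb (42.0 to 302), from 3 members in Trl and 2 in the Polycomb group gene ph-p, but 2 of 22 genes as hosts (9.09%, Wilson 2.53 to 27.8%), an interval that takes in 5.92%. These 4 lists were the ones whose density interval lay wholly above 35.4, without adjustment over the 20 lists. The intervals treat members of the same gene as independent and are too narrow where members share a gene. In the Dpp list shn held 6 of the 10 members, and in the EGF receptor list Raf held 4 of 10. In the actin and cell adhesion list dlg1 and mew held 4 each of 18.

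Lists tied to Tango's known roles had hosts too, and their density intervals were wide and took in the 35.4 of all eligible sequence. They share hosts with the lists above. In the midline list aos and S, and in the trachea list sty and pnt, also belong to the EGF receptor list. The trachea host tkv also belongs to the Dpp list. The trachea list had 6 of 18 hosts and 45.1 members per Mb (18.1 to 92.9). Among them were rib, a BTB factor of tube growth, at 63.2, 77.8 and 84.2, the apical determinant crb at 68.0, 72.8 and 72.7, and sty, the inhibitor Sprouty, at 71.7, 78.0 and 50.3. The ventral midline and axon guidance list had 7 of 25 and 55.9 per Mb (27.9 to 100.03). By their strongest member, its first hosts were aos and S, given above. Next was sli, the gene of the midline repellent Slit (chr2R:15887046-15887262), at 84.2, 91.1 and 76.9. The insulin and hypoxia list had 4 of 18 and 68.4 per Mb (22.2 to 160). Its strongest member lay in ImpL2, which encodes an insulin-binding protein (chr3L:4228264-4228496), at 91.2, 95.1 and 94.7. For this member the nearest start site was that of another gene, CG46460. Hph, the prolyl hydroxylase that marks Similar for degradation, stood at 67.9, 44.6 and 32.4, 1004 bp upstream of a start site of Tim17a2 and so just outside the promoter limit.

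The remaining lists with hosts were spread over tissue and pathway regulators. In the Notch list, 2 of 12, neur, the ubiquitin ligase that activates Delta, stood at 94.7, 97.6 and 95.1, and mam, the coactivator Mastermind, at 93.6, 95.01 and 89.8. In the mesoderm and muscle list, 5 of 19, zfh1 stood at 89.3, 93.8 and 94.3. The Wnt and Hedgehog list had 5 of 18 (3 without replicate 1, without replicate 2 or in all 3 lists), led by arr, the coreceptor Arrow, at 88.4, 86.5 and 88.7. The circadian clock list had 4 of 13, led by Pdp1 at 78.7, 88.4 and 81.7. Among ecdysone and juvenile hormone genes there were 3 of 16, led by the nuclear receptor gene Hr3 at 70.2, 75.7 and 87.5. The Hox list had 2 of 10, Abd-B at 39.2, 67.8 and 60.03 and Antp at 12.6, 54.7 and 43.8. The neural list had 3 of 16, led by elav at 71.5, 79.7 and 76.1. For the members given in mam, arr and Hr3 the nearest start site was that of another gene: CG18371, CG43192 and CG46321, in this order. Segmentation genes hosted 0 of 19, glycolysis genes 0 of 9, ribosomal protein genes 0 of 55, odorant and gustatory receptor genes 0 of 98 and cuticle protein genes 0 of 50. In members per Mb, the neural list had 17.7, the ecdysone list 26.8 and the mesoderm list 28.5, all below 35.4. The Hox list had 35.6, the Notch list 39.4, the Wnt and Hedgehog list 47.8 and the clock list 54.4, and the intervals of all 7 took in 35.4. The eligible sequence of the 5 lists without hosts came to 26.2, 6.94, 23.1, 22.7 and 62.1 kb, so that exact Poisson upper bounds ran from 59.4 to 532 members per Mb and took in the 35.4 of all eligible sequence.

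**Figure D5:**
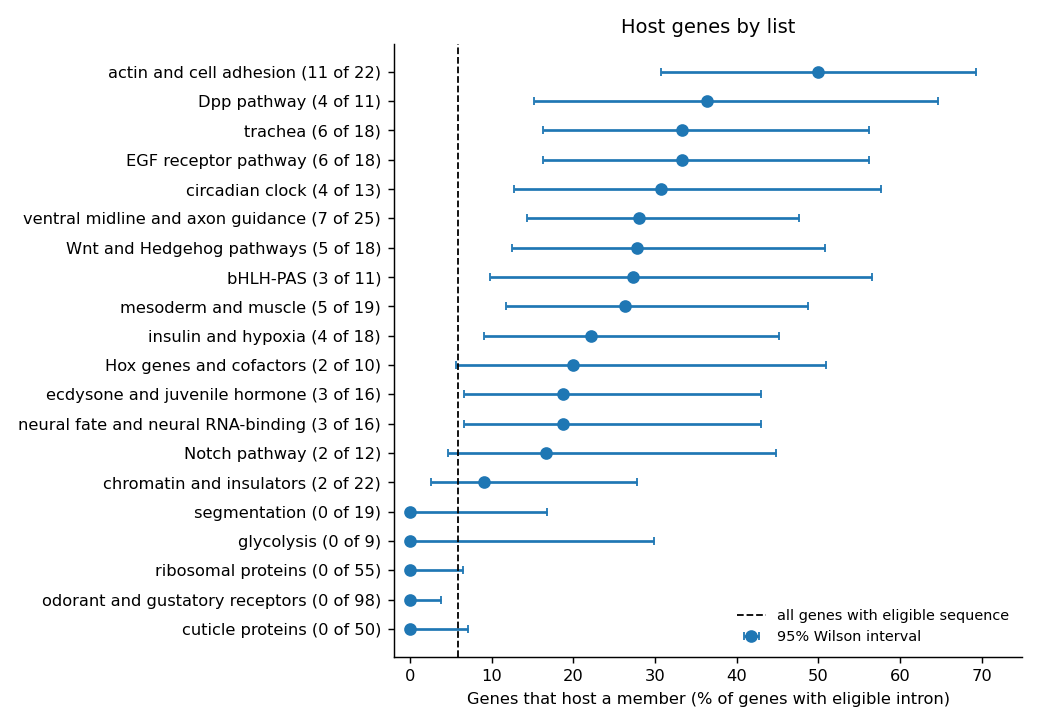
Share of genes that host a member among genes with eligible intron sequence (x axis, %) for each of the 20 lists, with Wilson 95% intervals and hosts of genes in brackets. The dashed line marks 5.92%, the share of all genes with eligible sequence, and the actin and cell adhesion list lies farthest to the right with 11 of 22 genes.

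The shares of the cores ACGTG and GCGTG were also taken by the members' strength. In 5 groups of 155 members from weakest to strongest, ACGTG was in 5.16%, 7.74%, 3.87%, 5.16% and 4.52% of windows. GCGTG was in 7.10%, 3.87%, 5.16%, 5.16% and 3.23%. Mean GC at the summit was 32.5%, 30.01%, 30.5%, 30.7% and 28.7%, and the median distance to the start site 1951, 1869, 1731, 1746 and 1669 bp. No test was run on these values. The counts of the cores are small, so neither a trend nor its absence is read from them.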

How the data were processed

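Anti-GFP chromatin immunoprecipitation sequencing was done on 3 biological replicates. For each, the authors deposited a thresholded and a longer ranked peak list on dm6, made from that replicate's filtered alignments and 1 further input that all 3 replicates share, per the deposited readme. The labels name the same control for all 3. Neither aligner, peak caller nor read depth is stated there or in the labels. Precision per peak is therefore unknown. The deposited score is scaled from the irreproducible discovery rate, at most 1000 and at least 830 in the thresholded lists, and a second deposited score, the enrichment value in unstated units, served only for percentiles within a list. The deposited summit offsets gave positions. One conservative list served as an alternative, and further lists that combine replicates were left aside, since which ones they combine is not stated.

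Gene models came from Ensembl release 115, and the sequence from the matching NCBI assembly. Python 3.11.15, numpy 2.4.6, pandas 2.3.3 and scipy 1.17.1 were used, and the functions were tested on simulated data. A signed difference was tested over the 3 replicates by an exact two-sided sign-flip permutation, whose smallest p is 0.25, and motif tests carry Benjamini-Hochberg adjustment. Regions and genes are not replicates and got no test. A motif counted on either strand. Tiles of 100 bp were weighted to the members' GC in classes of 1 percentage point, with those below 15% or above 60% pooled. A host gene is that of the nearest start site where the member lies in it, otherwise the nearest of the genes around it. A first intron is that of any protein-coding transcript.

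Members and gene lists were chosen with earlier results of these data known. Of the symbols listed, 10 were matched by synonym and 5 (slit, lb, Dl, Tor and Z4) were not matched. Named were the 15 strongest members, up to 3 hosts per list, all bHLH-PAS hosts, the 5 hosts with most members and 5 5-mers. Up to 12 members are shown as sequence. One of the 15 is not reported here by name.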

Additional observations from a re-analysis of the deposited data

How the results depend on the processing

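Alternatives changed the members' support, linkage, position, distance and promoter limits, exon models, window and flank, and left out each replicate. Members numbered 479 in all 3 lists, and 502 to 691 when a replicate was left out, with the lowest value without replicate 2. The share in first introns was 80.4% in all 3 lists, 84.6% up to 2500 bp from a start site, 60.8% with the longest transcript alone, and 79.2% to 80.8% with a replicate left out. With a candidate allowed within 50 bp in place of 150 bp, 67.9% of members in 2 lists were found in the third replicate. The GC difference between members and promoters changed sign, to 0.0402 percentage points in all 3 lists, 0.158 with promoters from -500 to +100 bp and 0.0318 in windows of 200 bp, and the cause was not tested. Among motifs the log2 ratio of summits to flanks turned for TATCGA, to -0.049 in all 3 lists and -0.38 up to 2500 bp, for TGANTCA, to -0.091 up to 2500 bp and -0.20 with flanks at 1000 bp, and for ACCNGTT, bound by Grainyhead, to 0.20 with flanks at 1000 bp. The GC difference between summit and flank, the ACGTG ratio and the density ratios of first to later introns, of near to far introns and of X to autosomes kept their direction under all alternatives run for them. The X ratio, here over all members rather than as a mean of the lists, ran from 1.32 up to 2500 bp to 1.52 in all 3 lists. Under the main choices this ratio was 1.36. With promoters from -2000 to +500 bp, 11 of the 15 strongest members remained, and the hosts fell from 3 to 1 in the bHLH-PAS list, from 6 to 3 in the trachea list and from 4 to 2 in the insulin and hypoxia list. Up to 2500 bp, hosts in the midline, ecdysone, mesoderm, Notch, clock and Hox lists numbered 4, 1, 2, 1, 2 and 1. Hosts numbered 7 in place of 11 in the actin and cell adhesion list and 3 in place of 5 in the Wnt and Hedgehog list in all 3 lists, without replicate 1 and without replicate 2. No paired analysis was possible because the series has 1 group. Counts of regions set the precision, so motifs in few windows, such as CACGTG in 3 members, cannot be ranked.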

Other observations

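A 5-mer chosen after its values were seen, CACTG, was in 17.4% of summit windows and 16.6% of flanks, and its count at summits was 2.21 times that expected from the frequencies of bases and neighbouring bases there, against 1.32 times in the flanks. In the farther introns it was in 13.9% of windows. On X the members' flanks had 39.6% GC and on the large autosome arms 42.5%, while the summits had 30.7% and 30.4%. No test was run on these values.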
